A study of Mus musculus with 12 samples.

Results

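The acute-phase and complement genes described here are 47 mouse genes found by symbol, through the identifiers of their transcripts, among the 31114 genes of the deposited tables. All 47 were found, and 44 of them passed the filter on low values and were tested, together with 8846 genes in all. RNA was measured by sequencing in the livers of 12 hFIX-R29X mice, a hemophilia B model without the mouse gene for coagulation factor IX. All of the animals carried a minigene of human factor IX that holds a nonsense codon. Its human transthyretin promoter restricts it mainly to hepatocytes. Groups of 4 animals received the vehicle DPBS, a scrambled Control-GalNAc-ASO at 15 mg/kg or an Upf3b-GalNAc-ASO at 10 mg/kg. Livers 1 and 2 of each group were female and livers 3 and 4 male. The ASOs were antisense gapmers joined to N-acetylgalactosamine, which hepatocytes take up through the asialoglycoprotein receptor. Treatment comprised 6 subcutaneous doses spaced 5 days apart in animals of 8 to 14 weeks, and livers were taken 48 h after the final dose. The control ASO dose was higher than the Upf3b-ASO dose, so that ASO sequence and dose cannot be told apart between those groups.

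The acute-phase response is the change in the plasma proteins made by the liver during infection or injury. Interleukin-6 acts through its receptor and STAT3, and interleukin-1 through NF-kB and C/EBP factors, to raise the transcription of serum amyloid A, haptoglobin, orosomucoid, hepcidin and metallothionein genes in hepatocytes. Complement is a cascade of plasma proteases, also made largely by hepatocytes, in which recognition by antibodies or lectins leads to cleavage of C3 and then to assembly of a membrane pore from C5, C6, C7, C8 and C9. UPF3B is a factor of nonsense-mediated mRNA decay (NMD), the pathway that degrades mRNAs with premature stop codons, and the comparisons ask how its depletion, or the scrambled ASO alone, altered liver RNA.

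Estimated counts summed to between 18500135 and 20387682 per DPBS liver, 17642996 and 18764106 per Control-ASO liver and 13277892 and 17054313 per Upf3b-ASO liver. Levels below are CPM, counts relative to a library of fixed size, scaled between livers by TMM, a factor that sets most genes equal, and are listed for livers 1 to 4 in order. Upf3b itself lay between 7.93 and 13.4 CPM in the 8 control livers and between 0.651 and 1.58 CPM in the Upf3b-ASO livers (log2 difference of -3.30 ± 0.27 (SE) against Control-ASO, adjusted p = 7.4e-05). Summed hepatocyte markers stood at 67491 to 114440 CPM, and none of the 8 was called in either Upf3b-ASO comparison. Within each sex the sum was lower in both Upf3b-ASO livers than in all controls. In females it was 103071 and 103686 against 111827 to 114440 CPM, and in males 73706 and 67491 against 81631 to 99644 CPM. The part of this order in the member levels was not tested. In Control-ASO liver 1 the summed markers of neutrophils were 79.9 CPM, of erythroid cells 1914 CPM and of Kupffer cells 735 CPM, against 0.599 to 10.1, 136 to 389 and 277 to 508 CPM in the other livers. In bulk liver RNA, fewer cells of a type and less RNA per cell cannot be told apart.

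Control-ASO liver 3, a male, stood apart from the other 11 livers in this gene set. Of the 44 tested members, 25 were at least 2-fold higher in it than the mean of the other 3 Control-ASO livers and 3 were at least 2-fold lower, where 9.20% and 9.68% of all tested genes passed those limits. The median log2 ratio of the members was 1.08, against -0.04 for all tested genes, and 29 members were higher in it than in every other liver, where 31.1% of all genes were. Scaling by total counts instead of TMM moved the median of all genes to -0.41, and 18 members were then higher and 3 lower, where the limits took 5.23% and 19.3% of all genes. The members together took 5.26% of its counts and 2.06% to 3.05% of the counts of the other livers. Atf3, an immediate-early stress factor, was at 348 CPM in it and at 1.06 to 5.38 CPM in the others, and Gadd45b, a stress sensor, was at 211 CPM against 0.530 to 3.66 CPM. Alb, the albumin gene, stood at 55992 CPM, within the 31041 to 77739 CPM of the other livers. Since 2 of the 3 other Control-ASO livers were female, these ratios mix sex and liver. Beside the male Control-ASO liver 4, Saa1 stood at 3649.6 against 22.6 CPM. Hamp2 (2.16 against 2.21 CPM) and C6 (358 against 345 CPM) were near that male, so their ratios followed sex. C8a (1262 against 1070 CPM), C8b (458 against 396 CPM) and C9 (526 against 364 CPM) were less than 2-fold above that male. They passed the 2-fold limit only because the mean held female livers. Of the markers of other cells, the summed sinusoidal endothelial markers were the lowest of the 12 livers in Control-ASO liver 3 (333 against 431 to 615 CPM). The 8 endothelial markers were mixed. Against the rest of its group 5 were at least 2-fold lower and 1 at least 2-fold higher, and 2 were the highest of all livers. Its summed cholangiocyte markers were the highest (55.0 against 18.8 to 34.7 CPM). The 1 cholangiocyte marker that passed the filter was lower than in the rest of its group (log2 ratio of -0.48), so that sum was high through markers under the filter. Its Kupffer sum lay at 370 CPM. The part of these cells in its member levels was not tested. Calls of members between groups are given with and without this liver.

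**Figure D1:**
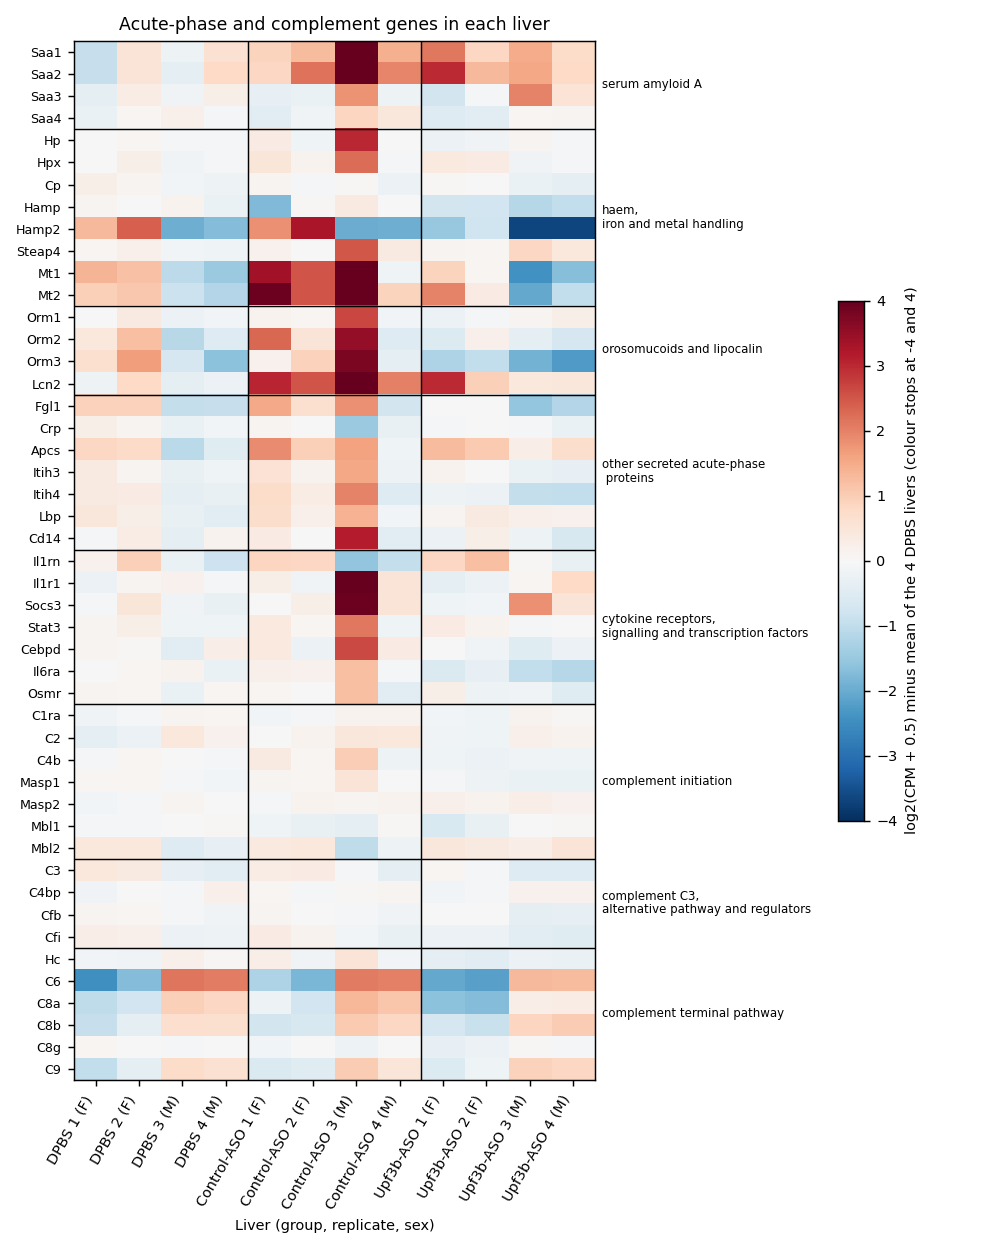
Levels of the 47 genes, grouped by role, in each of the 12 livers, drawn as log2(CPM + 0.5) minus the mean of the 4 DPBS livers. Control-ASO liver 3 stood out in the serum amyloid A, metal-handling and orosomucoid blocks, while C6, C8a, C8b and C9 split the livers by sex in all groups.

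**Figure D2:**
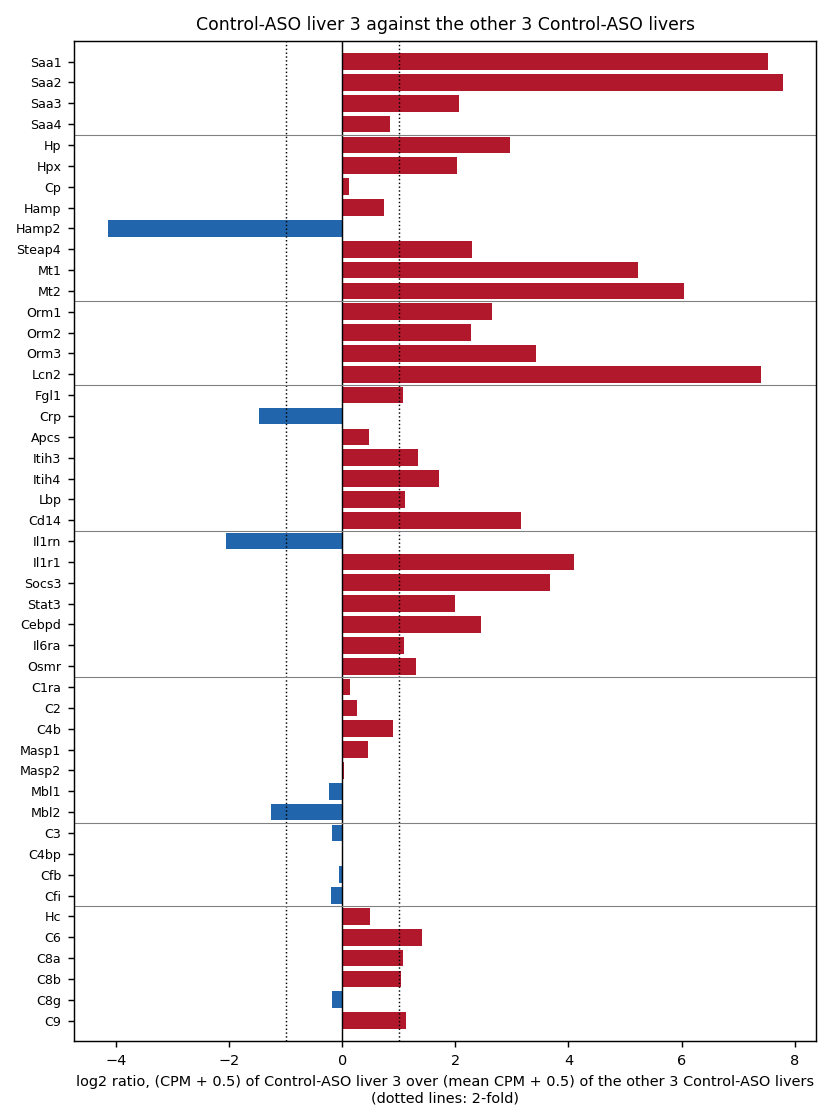
Log2 ratio of Control-ASO liver 3 to the mean of the other 3 Control-ASO livers, 1 bar per gene, with dotted lines at 2-fold. Saa2, Saa1 and Lcn2 had the highest ratios, at 7.79, 7.52 and 7.40, and Hamp2 the lowest, at -4.15. Hamp2 was at 2.16 CPM in this male liver and 2.21 CPM in the male Control-ASO liver 4, against 37.4 and 100.2 CPM in the females.

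Against Control-ASO, 6 of the 44 tested members were called at an adjusted p below 0.05, all of them lower with Upf3b-ASO (edgeR quasi-likelihood test with sex as a covariate). These were the hepcidin paralog Hamp2, the complement genes C8a, Cfi and Hc, the fibrinogen-like gene Fgl1 and the interleukin-6 receptor gene Il6ra. Over all tested genes 10.3% were called, 4.34% higher and 5.95% lower. Against DPBS, 3 members were called lower (Hamp2, C8a and Cfi) and none higher, where 8.93% of all genes were called, 3.57% higher and 5.36% lower. No member was called between Control-ASO and DPBS, where 1 gene of all those tested, or 0.0113%, was called, and 6.97% had an unadjusted p below 0.05. DESeq2 called 5 members higher there (Lcn2, Mt1, Mt2, Saa1 and Saa2), where it called 0.516% of all genes, 0.240% higher. In Control-ASO liver 3 these 5 stood 37.6-fold to 221-fold above the mean of the rest of its group. DESeq2 was run only with that liver included. The median log2 difference of the members was -0.68 for Upf3b-ASO against Control-ASO and -0.12 against DPBS, beside -0.02 and 0.00 for all genes.

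When Control-ASO liver 3 was left out, more genes of every kind were called. Against Control-ASO 12 members were then lower and none higher, where 24.5% of all genes were called, 11.0% higher and 13.5% lower. The 6 called with all livers were among them, with C6, Itih4, Masp1, Mt1, Mt2 and Orm3. Against DPBS 11 members were lower and 5 higher, where 28.7% of all genes were called, 15.0% lower and 13.7% higher. The members' median log2 difference was -0.16 against Control-ASO and -0.10 against DPBS. The calls were 27.3% and 36.4% of the tested members. No member was called between Control-ASO and DPBS without that liver either, where 0.0565% of all genes were.

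**Figure D3:**
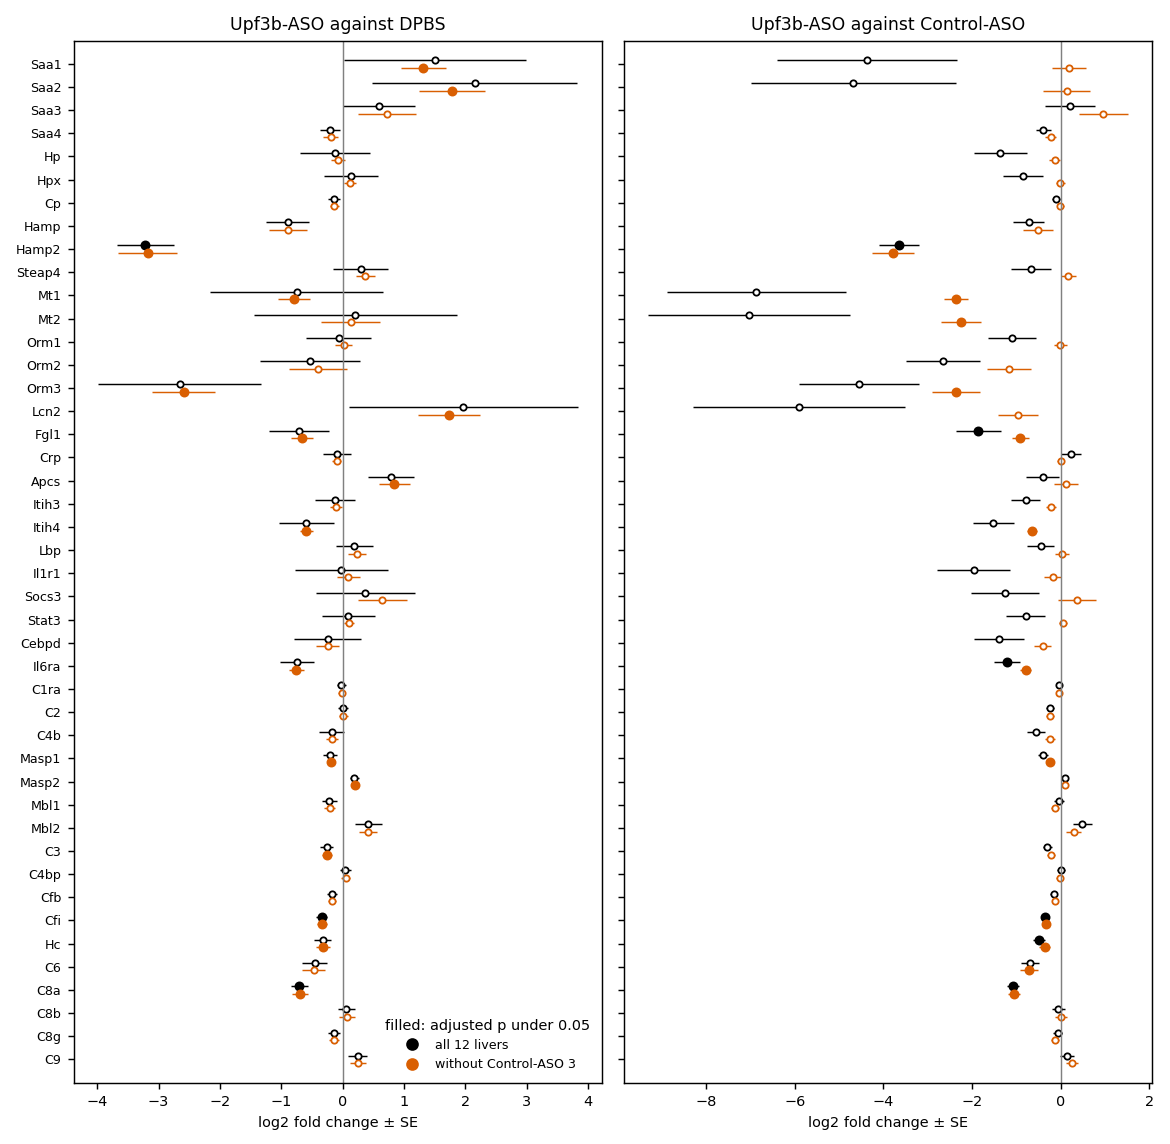
Log2 difference ± SE for the 44 tested genes, Upf3b-ASO against DPBS and against Control-ASO, with all 12 livers in black and without Control-ASO liver 3 in orange. Filled points have an adjusted p below 0.05, and the errors of the serum amyloid A, Lcn2 and metallothionein genes shrink once that liver is left out.

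In DPBS livers the set spanned a wide range of levels per transcript length, as TPM, which divides by length and scales every liver to the same sum. C3 had the highest mean at 3684 TPM, followed by Hpx at 1969, Hamp at 1382, Hp at 1228 and Cfb at 1047 TPM. Serum amyloid and lipocalin genes were low in these livers, with 24.4 TPM for Saa1, 15.4 for Saa2, 7.80 for Saa3 and 2.29 for Lcn2. Cd14, a co-receptor for lipopolysaccharide at 1.91 TPM, Osmr, the oncostatin M receptor at 1.97 TPM, and Il1rn, the interleukin-1 receptor antagonist at 2.47 TPM, did not pass the filter of 5 TPM in at least 4 livers. Members near that filter passed through unequal numbers of livers per group. Lcn2 reached 5 TPM in none of the DPBS, 4 of the Control-ASO and 2 of the Upf3b-ASO livers, and Orm3 in 2, 3 and 0.

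Among the serum amyloid A genes, which encode apolipoproteins of high-density lipoprotein, Saa1 and Saa2 are the classical strongly inducible ones. They lie with Saa3 and Saa4 in 1 cluster on chromosome 7 (GRCm38, 46711998 to 46754313). Annotated Saa1 and Saa2 transcripts were 94.4% identical, so the split of reads between them is uncertain. The 250 bases before the start of Saa1 (RefSeq, GRCm38.p6, chr7:46742981-46743230, minus strand) are shown because this gene had among the widest ranges of any member, with the single match to the C/EBP motif TTGCNNAA, 182 bases before the start, in capitals.
Saa1: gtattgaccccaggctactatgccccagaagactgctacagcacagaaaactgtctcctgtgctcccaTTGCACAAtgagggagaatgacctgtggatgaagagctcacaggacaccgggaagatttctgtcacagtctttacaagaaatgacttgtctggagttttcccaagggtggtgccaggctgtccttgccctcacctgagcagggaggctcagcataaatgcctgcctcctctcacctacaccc

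Saa1 measured 4.01, 11.6, 6.99 and 12.7 CPM in DPBS livers. It measured 15.4, 20.2, 3649.6 and 22.6 CPM in Control-ASO livers and 36.1, 14.8, 23.5 and 13.8 CPM in Upf3b-ASO livers. Both ASO groups lay above every DPBS liver, and Control-ASO liver 3 was more than 100-fold above the rest. Saa2 followed the same order, with 2.39, 7.32, 3.79 and 9.06 CPM after DPBS, 9.24, 24.2, 4119 and 21.1 CPM after Control-ASO and 42.8, 13.0, 15.7 and 9.14 CPM after Upf3b-ASO. With all livers, neither gene was called in any group comparison, with log2 differences for Saa1 of 1.51 ± 1.48 (adjusted p = 0.61) for Upf3b-ASO against DPBS (2.15 ± 1.66 for Saa2, adjusted p = 0.49) and 5.88 ± 2.04 (adjusted p = 0.64) for Control-ASO against DPBS, and -4.37 ± 2.04 (adjusted p = 0.19) between the ASO groups. Leaving out Control-ASO liver 3, Upf3b-ASO was above DPBS by 1.32 ± 0.37 for Saa1 (adjusted p = 0.022) and 1.78 ± 0.54 for Saa2 (adjusted p = 0.032), while Control-ASO was above DPBS by 1.14 ± 0.40 for Saa1 (adjusted p = 0.34). The levels in the 3 remaining Control-ASO livers overlapped those in the Upf3b-ASO livers, and the log2 difference between the ASO groups was 0.18 for Saa1 (adjusted p = 0.77). Saa3, made also by macrophages, stayed between 1.15 and 10.3 CPM in the 12 livers, with the highest values in Upf3b-ASO liver 3 and Control-ASO liver 3. Saa4, a constitutive member, measured 84.2, 107, 116 and 98.4 CPM after DPBS, 75.2, 90.4, 182 and 138 CPM after Control-ASO and 71.0, 74.5, 106 and 109 CPM after Upf3b-ASO. Its groups overlapped, and it was higher in males by 0.56 ± 0.13 (adjusted p = 0.025).

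Haptoglobin binds free haemoglobin and hemopexin binds free haem. Hp lay between 1049.6 and 1548 CPM in 11 livers and at 10068 CPM in Control-ASO liver 3. Hpx lay between 1974 and 3050.4 CPM in 11 livers and at 10327 CPM in that liver. Steap4, a metalloreductase, lay between 126 and 249 CPM, with 794 CPM in that liver. Cp, the ferroxidase ceruloplasmin, measured 1747, 1597, 1372 and 1291 CPM after DPBS, 1592, 1408, 1547 and 1269 CPM after Control-ASO and 1542, 1509, 1245 and 1154 CPM after Upf3b-ASO, so that Control-ASO liver 3 was within the range of the others. None of these 4 was called in a comparison between groups.

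Hamp encodes hepcidin, the hormone that blocks iron export from cells, and Hamp2 is its mouse paralog. Hamp lies at 30942368 to 30944032 and Hamp2 at 30922372 to 30924681 on the minus strand of chromosome 7 (GRCm38). Their transcripts were 94.6% identical, so that reads could be divided wrongly between them, and the windows of 250 bases before their starts were 91.9% identical. These windows (RefSeq, GRCm38.p6, minus strand) are shown because the 2 genes share most of this sequence and 1 of them was called. Capitals mark the STAT motif TTCNNNGAA, found 97 bases before the start of Hamp (chr7:30944030-30944279) and 94 bases before that of Hamp2 (chr7:30924182-30924431).
Hamp: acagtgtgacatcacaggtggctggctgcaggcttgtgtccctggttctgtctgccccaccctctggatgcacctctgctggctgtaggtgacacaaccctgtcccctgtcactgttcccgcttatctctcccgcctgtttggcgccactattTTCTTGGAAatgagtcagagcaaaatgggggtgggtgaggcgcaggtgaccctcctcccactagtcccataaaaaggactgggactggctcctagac
Hamp2: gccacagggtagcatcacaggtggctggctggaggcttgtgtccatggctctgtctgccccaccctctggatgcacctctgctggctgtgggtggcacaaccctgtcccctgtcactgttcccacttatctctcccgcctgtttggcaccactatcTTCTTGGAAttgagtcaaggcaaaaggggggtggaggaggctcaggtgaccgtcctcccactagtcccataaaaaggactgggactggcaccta

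Hamp2 measured 25.5, 55.0, 2.25 and 2.65 CPM in DPBS livers. It measured 37.4, 100.2, 2.16 and 2.21 CPM in Control-ASO livers and 3.23, 5.54, 0.333 and 0.331 CPM in Upf3b-ASO livers. Females were above males in every group, and within each sex both Upf3b-ASO livers were below all 4 control livers. How many of all tested genes showed such an order within each sex was not counted, for this or any other member. The same holds for members whose Upf3b-ASO livers were below the livers of both control groups. These orders are therefore descriptions only. The log2 difference was -3.65 ± 0.46 against Control-ASO (adjusted p = 0.00096) and -3.22 ± 0.46 against DPBS (adjusted p = 0.0019), with values of -3.79 and -3.18 without Control-ASO liver 3. The difference between males and females was -4.38 ± 0.36 (adjusted p = 2e-05). The male Upf3b-ASO values rest on 5 reads each, and without sex in the model the calls were lost (adjusted p = 0.14 and 0.28).

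Hamp measured 255, 237, 259 and 193 CPM after DPBS, 68.6, 243, 303 and 231 CPM after Control-ASO and 142, 138, 107 and 119 CPM after Upf3b-ASO. The Upf3b-ASO livers lay below all DPBS livers and below 3 of the 4 Control-ASO livers, Control-ASO liver 1 being the lowest of all 12. Its log2 differences of -0.72 ± 0.35 (adjusted p = 0.20) against Control-ASO and -0.90 ± 0.34 (adjusted p = 0.14) against DPBS did not pass. Without Control-ASO liver 1, the liver with high neutrophil and erythroid markers, both passed (adjusted p = 0.0026 and 0.0036). Within each sex the log2 ratio of Hamp2 to Hamp was lower in both Upf3b-ASO livers than in all controls, at -5.46 and -4.64 against -3.32 to -0.87 in females and -8.33 and -8.49 against -7.13 to -6.19 in males. The exact two-sided permutation test over 4 against 4 livers, which does not hold sex fixed, gave p = 0.257 against Control-ASO and 0.229 against DPBS.

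Mt1 and Mt2 encode the metallothioneins, small cysteine-rich proteins that bind zinc and copper, and lie side by side on chromosome 8 (GRCm38, 94172664 to 94180327). Mt1 measured 33.9, 29.5, 6.04 and 4.29 CPM after DPBS, 136, 75.6, 2814 and 11.5 CPM after Control-ASO and 24.5, 13.8, 2.00 and 3.58 CPM after Upf3b-ASO. Control-ASO liver 3 was the highest of all, and the other livers were higher in females than in males of their group. With all livers the difference from Control-ASO was -6.87 ± 2.02 and did not pass (adjusted p = 0.056). Once Control-ASO liver 3 was left out it was -2.36 ± 0.27 (adjusted p = 0.00018), and that from DPBS was -0.79 ± 0.27 (adjusted p = 0.045). Mt2 measured 6.66, 7.32, 1.54 and 1.17 CPM after DPBS, 55.2, 20.8, 1839 and 6.39 CPM after Control-ASO and 14.1, 4.18, 0.400 and 1.39 CPM after Upf3b-ASO. Control-ASO liver 3 was again the highest. The difference between the ASO groups was -7.04 ± 2.29 with all livers (adjusted p = 0.077) and -2.25 ± 0.45 without it (adjusted p = 0.0046). Mt2 in the 3 remaining Control-ASO livers was above DPBS by 2.39 ± 0.45, which did not pass (adjusted p = 0.095).

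**Figure D4:**
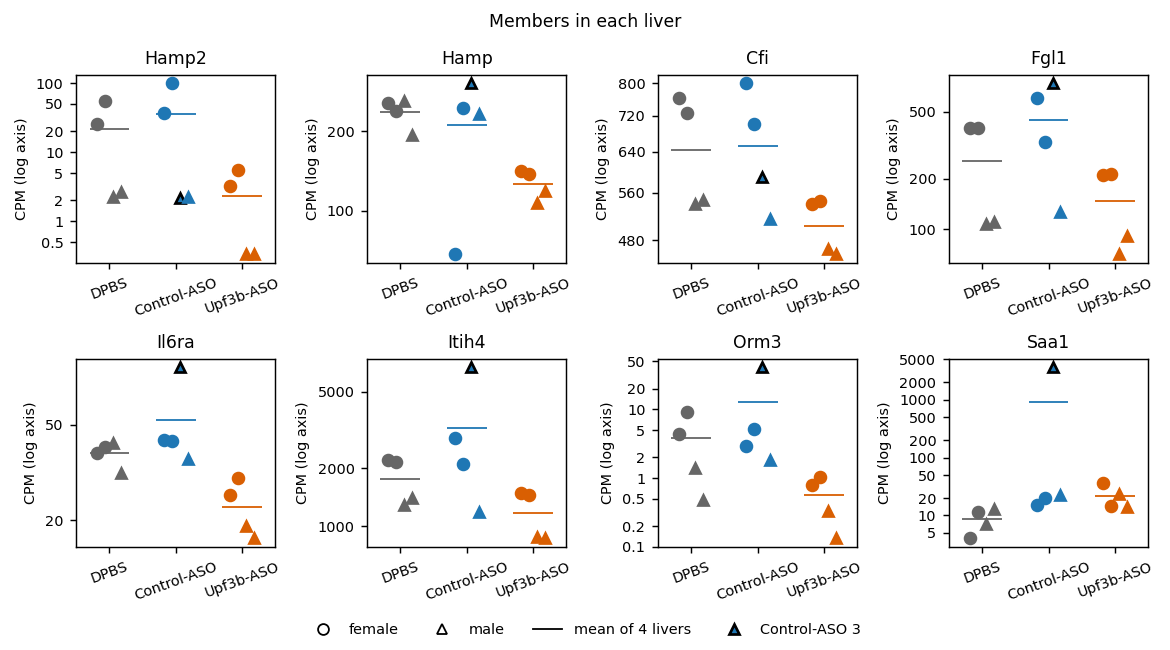
CPM on a log axis for 8 genes in each liver, circles for females, triangles for males, a line for the mean of the 4 livers of a group and a black edge for Control-ASO liver 3. Upf3b-ASO livers lay below the controls of their own sex for Hamp2 and Cfi, while the Control-ASO mean of Saa1 rests on the single liver at 3649.6 CPM.

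Orosomucoids are carriers of small lipophilic molecules in plasma, and Lcn2 encodes lipocalin 2, which binds bacterial siderophores and is made by hepatocytes and neutrophils. The 3 orosomucoid genes lie together on chromosome 4 (GRCm38, 63344560 to 63365878), and their transcripts were 86.5% to 91.0% identical, so the reads of the rare Orm2 and Orm3 are uncertain beside those of the abundant Orm1. Orm3 measured 4.32, 9.18, 1.42 and 0.477 CPM after DPBS, 2.95, 5.26, 41.2 and 1.85 CPM after Control-ASO and 0.789, 1.03, 0.333 and 0.132 CPM after Upf3b-ASO. All Upf3b-ASO livers were below all Control-ASO livers, and within each sex they were below all control livers of that sex. Its log2 difference was -4.56 ± 1.36 against Control-ASO (adjusted p = 0.058) and -2.66 ± 1.33 against DPBS (adjusted p = 0.26). Without Control-ASO liver 3 the differences were -2.37 ± 0.54 (adjusted p = 0.0096) and -2.59 ± 0.51 (adjusted p = 0.0036). Orm1 lay between 341 and 516 CPM in 11 livers and at 2599 CPM in Control-ASO liver 3. Orm2 measured 11.0, 19.1, 3.44 and 5.46 CPM after DPBS, 41.6, 11.7, 96.4 and 5.44 CPM after Control-ASO and 5.30, 9.39, 6.19 and 4.90 CPM after Upf3b-ASO. The groups overlapped, and neither gene was called.

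Lcn2 measured 1.09, 2.66, 0.889 and 1.06 CPM after DPBS, 14.5, 9.78, 1834 and 6.81 CPM after Control-ASO and 13.9, 3.04, 1.93 and 1.99 CPM after Upf3b-ASO. Every Control-ASO liver was above every DPBS liver. The log2 difference of 7.87 ± 2.38 between these groups did not pass with all livers (adjusted p = 0.64), nor did that of 2.70 ± 0.51 without Control-ASO liver 3 (adjusted p = 0.095). Leaving it out, Lcn2 was higher in Upf3b-ASO than in DPBS by 1.73 ± 0.51 (adjusted p = 0.026), against 1.97 ± 1.87 with all livers (adjusted p = 0.59). Control-ASO liver 1 and Upf3b-ASO liver 1, with the next highest values, had neutrophil marker sums of 79.9 and 2.29 CPM, against 10.1 CPM in Control-ASO liver 3 and at most 1.32 CPM in the other livers, and the part of these cells in the Lcn2 level was not tested. Saa1, Saa2 and Lcn2 were the 3 members whose 4 Control-ASO livers all exceeded the 4 DPBS livers, an order that 1.29% of all tested genes showed. No member showed the opposite order, which 1.66% did. Lcn2 passed the filter on low values only with its Control-ASO livers counted, and reads of Saa1 and Saa2 are hard to separate. The 3 are thus no independent support for a difference between these groups. Upf3b-ASO and Control-ASO livers were apart in 4 members, all lower with Upf3b-ASO, Orm3, Il6ra, Hc and Masp1, where 7.69% of all genes were lower and 7.74% higher. Of these, Orm3 passed the filter through control livers alone. Upf3b-ASO and DPBS livers were apart in 3 members that were higher, Saa1, Saa2 and Masp2, and 4 that were lower, Hamp, Il6ra, C4b and Hc, where 919 and 1065 of the 8846 genes tested were.

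The other secreted acute-phase proteins include pentraxins, inter-alpha-trypsin inhibitor heavy chains and the lipopolysaccharide-binding protein. Fgl1, a fibrinogen-like protein made by hepatocytes (chromosome 8, GRCm38, 41191434 to 41215156), measured 401, 401, 108 and 111 CPM after DPBS, 602, 329, 740.0 and 127 CPM after Control-ASO and 211, 213, 71.1 and 91.7 CPM after Upf3b-ASO. Within each sex both Upf3b-ASO livers were below all control livers, although the groups overlapped across the sexes. The log2 difference from Control-ASO was -1.86 ± 0.51 with all livers (adjusted p = 0.044) and -0.91 ± 0.19 without Control-ASO liver 3 (adjusted p = 0.006). The call with all livers was near the threshold, and 11 of 18 alternative fits did not make it. The difference from DPBS was called without Control-ASO liver 3 only, at -0.66 ± 0.17 (adjusted p = 0.016).

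Itih4, an inter-alpha-trypsin inhibitor heavy chain of the acute phase, measured 2214, 2147, 1295 and 1401 CPM after DPBS, 2875, 2119, 6715 and 1189.6 CPM after Control-ASO and 1496, 1446, 879 and 865 CPM after Upf3b-ASO. Upf3b-ASO livers were again below the controls of their sex. With all livers the differences of -1.53 ± 0.46 from Control-ASO (adjusted p = 0.062) and -0.59 ± 0.45 from DPBS (adjusted p = 0.48) did not pass. Itih4 was called without Control-ASO liver 3, at -0.65 ± 0.11 against Control-ASO (adjusted p = 0.0025) and -0.59 ± 0.10 against DPBS (adjusted p = 0.0021). Itih3, a related chain, lay between 521 and 963 CPM in 11 livers and at 1894 CPM in Control-ASO liver 3, with no call between groups.

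The pentraxins recognise microbial surfaces and dying cells. Apcs, serum amyloid P, measured 112, 107, 29.4 and 44.5 CPM after DPBS, 236, 123, 193 and 55.3 CPM after Control-ASO and 152, 132, 75.5 and 104 CPM after Upf3b-ASO. Within each sex the Upf3b-ASO livers were above the DPBS livers, and the difference was 0.79 ± 0.38 with all livers (adjusted p = 0.24) and 0.84 ± 0.25 without Control-ASO liver 3, which was called (adjusted p = 0.029). With all livers, Control-ASO was also above DPBS, by 1.20 ± 0.38 (adjusted p = 0.64). Upf3b-ASO differed from Control-ASO by -0.41 ± 0.37 (adjusted p = 0.50). Crp, C-reactive protein, which responds weakly in mice, lay between 248 and 356 CPM in 11 livers and at 107 CPM in Control-ASO liver 3. Lbp lay between 37.7 and 81.1 CPM in 11 livers and at 134 CPM in that liver, and neither was called between groups.

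All 5 tested receptors and regulators of the response were highest in Control-ASO liver 3. Il1r1, the interleukin-1 receptor, measured 23.3, 29.8, 31.0 and 26.9 CPM after DPBS, 32.3, 25.0, 560.2 and 39.8 CPM after Control-ASO and 21.3, 23.2, 29.0 and 48.1 CPM after Upf3b-ASO. Socs3, the feedback inhibitor of STAT3 signalling, measured 6.25, 9.28, 5.86 and 5.19 CPM, then 6.45, 7.81, 107 and 9.56 CPM, then 5.66, 5.92, 24.4 and 9.53 CPM in the same order of groups. Its next highest value was thus in Upf3b-ASO liver 3. Cebpd, a C/EBP factor, measured 9.73, 9.28, 6.58 and 10.8 CPM, then 11.9, 7.47, 58.7 and 11.5 CPM, then 8.89, 8.09, 6.19 and 7.48 CPM. Stat3 lay between 103 and 154 CPM in 11 livers and at 506 CPM in Control-ASO liver 3. Among the untested genes, Cd14 lay between 1.26 and 2.95 CPM and at 23.8 CPM, and Osmr between 4.17 and 7.17 CPM and at 14.6 CPM. Il1rn went the other way, with 0.360 CPM in that liver and 0.836 to 5.48 CPM in the others.

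Il6ra, the ligand-binding chain of the interleukin-6 receptor (chromosome 3, GRCm38, 89864059 to 89913196), measured 38.0, 40.3, 42.1 and 31.5 CPM after DPBS, 43.1, 42.9, 86.9 and 35.9 CPM after Control-ASO and 25.4, 29.9, 18.9 and 16.8 CPM after Upf3b-ASO. All 4 Upf3b-ASO livers were below all 8 control livers. The log2 difference was -1.21 ± 0.29 against Control-ASO (adjusted p = 0.023) and -0.74 ± 0.28 against DPBS, which did not pass (adjusted p = 0.13). After Control-ASO liver 3 was left out the 2 differences were -0.79 ± 0.13 (adjusted p = 0.002) and -0.75 ± 0.13 (adjusted p = 0.0014). The call against Control-ASO was lost when either male Upf3b-ASO liver was left out.

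With all livers, no complement initiation gene was called between groups. C1ra, a protease of the C1 complex, lay between 305 and 382 CPM in all livers and C2, the protease that forms part of the C3 convertase, between 92.4 and 160.4 CPM. C4b lay between 1452 and 2181 CPM in 11 livers and at 3400.0 CPM in Control-ASO liver 3, and its Upf3b-ASO livers, at 1452 to 1554 CPM, were below all DPBS livers, at 1646 to 1788 CPM (log2 difference of -0.18 ± 0.20, adjusted p = 0.66). Mannose-binding lectins recognise sugars on microbes. Mbl1 measured 111, 110.1, 116 and 119 CPM after DPBS, 102, 93.0, 89.2 and 119 CPM after Control-ASO and 73.9, 91.6, 112 and 119 CPM after Upf3b-ASO. Mbl2 measured 476, 483, 249 and 285 CPM, then 469, 478, 175 and 313 CPM, then 489, 457, 431 and 506 CPM in the same order of groups. The groups overlapped for both, and males were below females for Mbl2 after DPBS and Control-ASO but not after Upf3b-ASO, an interaction with sex of 0.83 on the log2 scale against DPBS that did not pass (edgeR adjusted p = 1.0 with all livers and 0.17 without Control-ASO liver 3). Among the lectin-pathway proteases, Masp1 measured 77.9, 78.6, 72.7 and 68.9 CPM after DPBS, 79.5, 79.2, 108 and 75.9 CPM after Control-ASO and 71.0, 64.7, 62.0 and 61.7 CPM after Upf3b-ASO. All Upf3b-ASO livers were below all Control-ASO livers, by 0.40 ± 0.11 on the log2 scale with all livers, which missed the threshold (adjusted p = 0.0503). Without Control-ASO liver 3 the differences of -0.25 ± 0.05 from Control-ASO (adjusted p = 0.0077) and -0.19 ± 0.05 from DPBS (adjusted p = 0.014) were called. Masp2 measured 157, 161, 182 and 170.4 CPM after DPBS and 192, 183, 199.6 and 189 CPM after Upf3b-ASO, with 160.5 to 186 CPM after Control-ASO. Upf3b-ASO lay above DPBS in every liver, by 0.20 ± 0.06 without Control-ASO liver 3 (adjusted p = 0.04), a call not made with all livers (adjusted p = 0.15).

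C3 is the central component that all complement pathways cleave, factor B forms the alternative convertase, and factor I and C4b-binding protein inactivate C3b and C4b. Cfi (chromosome 3, GRCm38, 129835884 to 129875332) measured 762, 726, 540.0 and 548 CPM after DPBS, 801, 702, 589.9 and 515 CPM after Control-ASO and 540.5, 546, 466 and 459 CPM after Upf3b-ASO. Within each sex all Upf3b-ASO livers were below all control livers. The log2 difference was -0.36 ± 0.09 against Control-ASO (adjusted p = 0.027) and -0.34 ± 0.09 against DPBS (adjusted p = 0.035), values that were -0.33 and -0.34 without Control-ASO liver 3. These calls were near the threshold, and 7 and 12 of 18 alternative fits did not make them. C3 measured 9419, 9122, 5663 and 5207 CPM after DPBS, 8767, 8891, 6797 and 5372 CPM after Control-ASO and 7472, 6749, 4965 and 4953 CPM after Upf3b-ASO, and differed from DPBS by -0.26 ± 0.10 with all livers (adjusted p = 0.16) and by -0.25 ± 0.08 without Control-ASO liver 3 (adjusted p = 0.045). Within each sex the 2 Upf3b-ASO livers had lower C3 than all the controls, an order whose share among all genes was not counted. Cfb measured 1539, 1491, 1382 and 1307 CPM after DPBS, 1555, 1445, 1370.3 and 1288 CPM after Control-ASO and 1419, 1403, 1123 and 1142 CPM after Upf3b-ASO. It too was lower within each sex, by 0.17 on the log2 scale against DPBS, which did not pass (adjusted p = 0.20). C4bp lay between 466 and 591 CPM, with no call between groups.

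The terminal pathway assembles the pore. Hc encodes C5, whose cleavage starts assembly, C8 consists of alpha, beta and gamma chains from C8a, C8b and C8g, and C9 closes the ring. C8a and C8b lie next to each other on chromosome 4 (GRCm38), C8b on the plus strand at 104766317 to 104804548 and C8a on the minus strand at 104815679 to 104876398, so that they point toward each other. The 250 bases before the start of each (RefSeq, GRCm38.p6) are shown because of these 2 chains, neighbours in the genome and partners in the protein, C8a alone was called between groups. C8a (chr4:104876399-104876648, minus strand) has 1 STAT motif TTCNNNGAA, 228 bases before the start, in capitals, and C8b (chr4:104766067-104766316, plus strand) has none of the motifs searched, the windows being 61.4% identical.
C8a: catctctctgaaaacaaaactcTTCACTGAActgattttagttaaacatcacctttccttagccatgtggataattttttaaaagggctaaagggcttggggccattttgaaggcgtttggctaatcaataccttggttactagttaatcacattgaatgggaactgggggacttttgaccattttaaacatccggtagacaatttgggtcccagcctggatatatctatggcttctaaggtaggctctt
C8b: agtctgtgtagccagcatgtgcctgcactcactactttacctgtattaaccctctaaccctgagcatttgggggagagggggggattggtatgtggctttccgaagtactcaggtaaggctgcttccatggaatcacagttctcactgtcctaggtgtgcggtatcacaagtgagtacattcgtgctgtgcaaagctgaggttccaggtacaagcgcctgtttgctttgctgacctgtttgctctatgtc

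C8a measured 246, 296, 972 and 886 CPM after DPBS. It measured 436, 292, 1262 and 1070.0 CPM after Control-ASO and 162, 149, 601 and 615 CPM after Upf3b-ASO. Males were above females in every group, and within each sex both Upf3b-ASO livers were below all 4 control livers. The log2 difference was -1.08 ± 0.14 against Control-ASO (adjusted p = 0.0009) and -0.70 ± 0.13 against DPBS (adjusted p = 0.009), and -1.06 and -0.70 without Control-ASO liver 3. Without sex in the model neither was called (adjusted p = 0.37 and 0.67). Males lay above females by 1.81 ± 0.11 (adjusted p = 3.2e-06).

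C8b measured 117, 171, 350.1 and 342 CPM after DPBS, 132, 143, 458 and 396 CPM after Control-ASO and 137, 118, 401 and 449 CPM after Upf3b-ASO. The groups overlapped in females, and in males both ASO groups lay above DPBS and overlapped each other. The log2 differences of Upf3b-ASO were -0.05 from Control-ASO (adjusted p = 0.84) and 0.06 from DPBS (adjusted p = 0.85). The log2 ratio of C8a to C8b was 1.07, 0.79, 1.47 and 1.37 after DPBS, 1.73, 1.03, 1.46 and 1.43 after Control-ASO and 0.23, 0.33, 0.58 and 0.45 after Upf3b-ASO. All Upf3b-ASO livers were below all control livers, by a mean of 1.01 against Control-ASO and 0.78 against DPBS (p = 0.0286 in both by an exact two-sided permutation test, the smallest that 4 against 4 livers allow, and 0.0857 after adjustment over 6 tests). The ratio was chosen after its values were seen. C8g, the third chain, lay between 173 and 229 CPM in all livers, with no call. Within each sex the log2 ratio of C8a to C8g was lower in both Upf3b-ASO livers than in all controls, at -0.10 and -0.33 against 0.10 to 1.11 in females and 1.41 and 1.56 against 2.02 to 2.74 in males. The exact test over 4 against 4 livers, which does not hold sex fixed, gave p = 0.2 and 0.486.

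**Figure D5:**
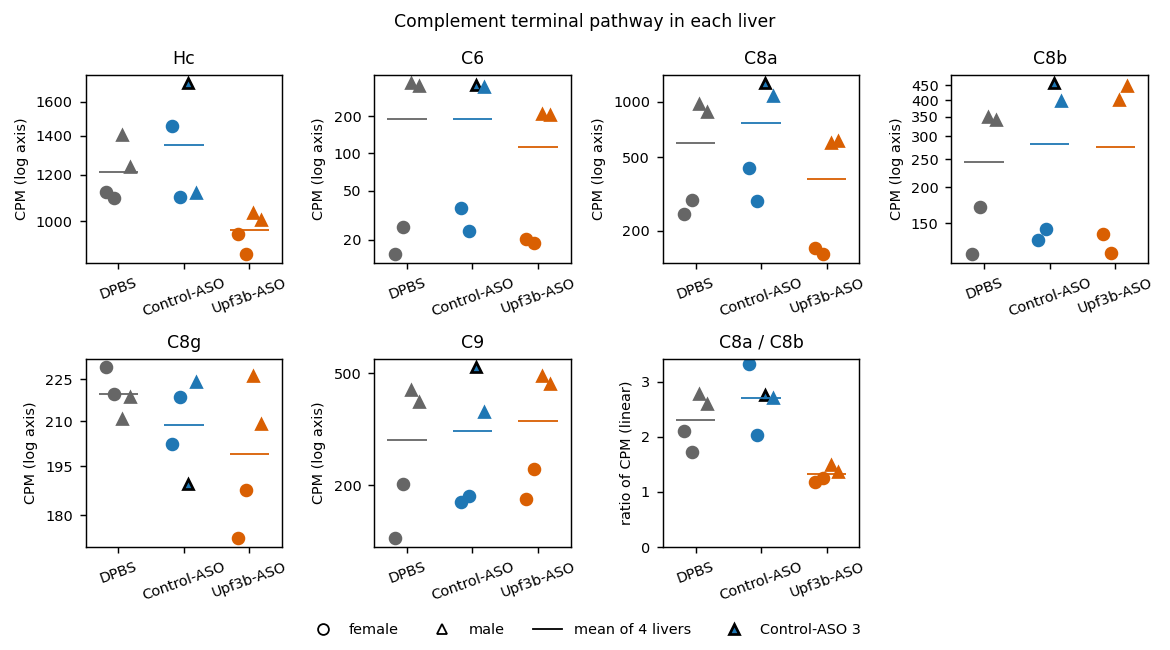
CPM on a log axis for the 6 terminal pathway genes in each liver, with the ratio of C8a to C8b on a linear axis, circles for females, triangles for males, a line for the mean of the 4 livers of a group and a black edge for Control-ASO liver 3. C8a, but not C8b, was lower with Upf3b-ASO within each sex, and C6, C8a, C8b and C9 were higher in males in all groups.

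Hc (chromosome 2, GRCm38, 34983331 to 35061438) measured 1121, 1093, 1401 and 1237 CPM after DPBS, 1455, 1101, 1721 and 1119 CPM after Control-ASO and 950.0, 877, 1031 and 1005 CPM after Upf3b-ASO. All 4 Upf3b-ASO livers were below all 8 control livers. The log2 difference from Control-ASO was -0.48 ± 0.14 (adjusted p = 0.0496) and that from DPBS -0.33 ± 0.14 (adjusted p = 0.18). Leaving out Control-ASO liver 3 gave -0.36 (adjusted p = 0.047) and -0.32 (adjusted p = 0.048), and 13 of 18 alternative fits did not call the first. C6 measured 15.1, 25.3, 372 and 351 CPM after DPBS, 35.9, 23.6, 358 and 345 CPM after Control-ASO and 20.1, 18.6, 207 and 203 CPM after Upf3b-ASO. The male Upf3b-ASO livers were below all male control livers while the females overlapped, and the difference from Control-ASO was -0.69 ± 0.20 with all livers (adjusted p = 0.052) and -0.72 ± 0.21 without Control-ASO liver 3 (adjusted p = 0.028). C9 lay between 129 and 526 CPM, with no call between groups.

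The sexes differed in 10 of the 44 members, 7 higher in males and 3 higher in females, where 10.0% of all tested genes were called, 4.30% higher in males and 5.73% lower. The male-high members were C6, C8a, C8b and C9 of the terminal pathway, C1ra, C2 and Saa4, and the female-high ones Hamp2, C3 and Cfi. Hamp2 had the widest difference, and C6 the widest of the male-high members, with a mean of 306 ± 78.7 CPM (SD, n = 6) in males and 23.1 ± 7.23 CPM (n = 6) in females (log2 difference of 3.71 ± 0.18, adjusted p = 6.1e-07). C8b differed by 1.54 ± 0.12 (adjusted p = 1.2e-05) and C9 by 1.29 ± 0.13 (adjusted p = 8.3e-05). C3 was lower in males by 0.61 on the log2 scale (adjusted p = 0.0011) and Cfi by 0.38 (adjusted p = 0.0078). Without Control-ASO liver 3, a male, 8 members were higher and 19 lower in males, where 21.9% of all genes were called, 10.4% higher and 11.5% lower, and the 19 then included Fgl1, Itih4, Mt1, Mt2, Orm2, Orm3, Lcn2 and Apcs. No member's response to Upf3b-ASO was called different between the sexes by an interaction term (0 called by edgeR against either control). Of all 8846 genes 0 were called too, and with 2 livers per sex in each group a difference could be missed. At an unadjusted p below 0.05 there were 1 member against DPBS and 8 against Control-ASO, where 3.57% and 7.31% of all genes stood. Without Control-ASO liver 3 there were 10 and 3, where 12.3% and 6.26% of all genes stood. Again no member was called, beside 1 of all genes against DPBS and 0 against Control-ASO.

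Other genes of the acute-phase response and its signalling were read from lists of their own. Of 14 other positive acute-phase genes, 5 were lower than Control-ASO and 4 lower than DPBS, with none higher, beside the 5.95% and 5.36% of all genes that were lower. Among them Itih2 was at -0.46 in both comparisons (adjusted p = 0.01 in each), and the alpha-1-antitrypsin gene Serpina1a was at -0.70 and -0.79 (adjusted p = 0.0013 and 0.00063), its reads being shared with near-identical paralogs such as Serpina1c, which was called too. Of 12 negative acute-phase genes, which fall during the response, Trf, F12 and Fetub were lower than Control-ASO and Trf and Ahsg lower than DPBS, with Trf, the transferrin gene, at -0.68 (adjusted p = 0.0068) and -0.58 (adjusted p = 0.015). In signalling, none of 10 interleukin-6 and STAT3 pathway genes was called against Control-ASO and Il6st, the shared signal-transducing receptor chain, was lower than DPBS (-0.35, adjusted p = 0.034). Of 14 interleukin-1, TNF and NF-kB genes only Ikbkg was called, higher than Control-ASO by 0.44 (adjusted p = 0.017). Without Control-ASO liver 3, when 13.5% and 15.0% of all genes were lower, the lower calls against Control-ASO and DPBS were 5 and 5 in the positive list, 4 and 7 in the negative list, 4 and 5 in the interleukin-6 list and 3 and 3 in the interleukin-1 list. The higher calls were 1 and 2, 0 and 0, 0 and 0, and 1 and 1. In Control-ASO liver 3, 7 of the 14 other positive acute-phase genes were at least 2-fold higher than in the rest of its group (median of 1.40 on the log2 scale) and 0 of the 12 negative ones (median of 0.04).

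Motif matches in the 250 bases before the start were read as a description of the set. The 36 members with a window had 41 windows, some genes having more than 1 start. The STAT motif occurred in 7.02% of 32851 RefSeq windows and in 8 of the 41, or 19.5% (Apcs, C8a, Hamp, Hamp2, Itih4, Masp2, Socs3 and Steap4). The C/EBP motif TTGCNNAA occurred in 9.56% of windows and in 14 of the 41, or 34.1%. The NF-kB pattern of GGGA, any 2 bases and TTCC occurred in 1.21% of windows and before no member, both strands being searched. Paralogs with near-identical windows, such as Hamp and Hamp2 (91.9%) or Saa1 and Saa2 (95.6%), were counted separately.

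Since UPF3B acts in NMD, transcripts of the members that the annotation marks as NMD targets were summed. Such transcripts existed for Cp, C4b, C9, Cfb and Mbl1, the only Mbl1 transcript in the files being one of them. Their share of the members' TPM was 3.26%, 3.20%, 3.59% and 3.68% after DPBS, 2.87%, 2.72%, 0.856% and 3.54% after Control-ASO and 3.23%, 3.36%, 3.72% and 3.56% after Upf3b-ASO. The DPBS and Upf3b-ASO livers overlapped, and the share differed by 0.034 points from DPBS (exact permutation test, two-sided, p = 0.771) and 0.97 points from Control-ASO (exact p = 0.0857). The difference from Control-ASO was 0.42 points without Control-ASO liver 3 (exact p = 0.171). Within C9, the share of its short NMD transcript was 1.72%, 3.36%, 3.92% and 3.17% after DPBS, 0.935%, 1.76%, 2.65% and 2.75% after Control-ASO and 4.60%, 3.47%, 6.61% and 3.95% after Upf3b-ASO. All Upf3b-ASO livers were above all Control-ASO livers, by a mean of 2.63 points (exact p = 0.0286, 0.114 adjusted over 4 genes), and overlapped the DPBS livers. The transcript had 12 to 199 reads per liver, and the difference of 1.61 points from DPBS did not pass (exact p = 0.0571, 0.229 adjusted).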

How the data were processed

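The authors prepared TruSeq libraries from liver total RNA, sequenced them on an Illumina instrument and quantified them by Salmon quasi-mapping to the Ensembl cDNA set. Per the submitters' processing notes the build was GRCm38.p4 and the tools bcl2fastq 2.17.1.14 and Salmon 0.7.2. The deposited estimated counts (expected counts, fractional where reads were shared between transcripts) and the deposited TPM values, both per transcript and without molecular identifiers, were joined to genes through GENCODE M21 identifiers of GRCm38 (98.1% of 92468 transcripts). Counts were summed per gene and rounded. Genes with at least 5 TPM in at least 4 livers were tested with edgeR 4.0.16 (R 4.3.3) by the quasi-likelihood test after TMM scaling, with group and sex as terms, all 12 livers in one model and Benjamini-Hochberg adjustment over all 8846 genes. A gene was called at an adjusted p below 0.05. CPM values use the TMM-scaled library sizes, and ratios add 0.5 CPM. Ratios and shares were compared by exact two-sided permutation tests. The labels give no batch, and nothing says that libraries were replicated beyond 1 per animal, so p-values measure the spread between these livers.

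Depth per liver is given above. Counting error is small for most members, and few reads lie behind Hamp2, Orm3 and Mt2 in some livers.

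The members and the comparison lists were chosen with earlier results of these data known, and those results already showed that acute-phase genes were high in Control-ASO liver 3, so that pattern has no independent support here. Values in each liver are given for members called between groups, for up to 3 members per role with the smallest p of Upf3b-ASO against DPBS, and for the 8 with the highest ratio in Control-ASO liver 3. Itih3, Stat3 and the rest are given by range, and Masp1 and C8b in full after their values were seen. Up to 3 called genes are named per other list and comparison. C8a to C8b ratios and C9 shares were added after their values were seen. Promoter windows came from RefSeq GRCm38.p6, and motifs were sought as plain letter patterns with Biopython 1.88.

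On simulated counts for Upf3b-ASO against Control-ASO over 8846 genes with 200 changed, the test recovered 92% of changes of 1 and 100.0% of changes of 2 on the log2 scale, with 3% false calls. These counts held no sex difference and no outlying liver, and their spread depended on level alone. The figures therefore do not give the recovery for members such as Saa1, whose SE between the ASO groups was 2.04. Same-numbered livers of different groups correlated no better (mean r of 0.51) than other livers of the same sex (0.51), so the numbers were not taken to pair them. Alternatives were DESeq2 1.42.0, another scaling, no filter, no sex term, the replicate block and each liver left out. Upf1-ASO livers were not analysed here. A list of other complement genes is not reported here.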

Additional observations from a re-analysis of the deposited data

Results flagged for a closer look

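Among 141 sets of 4 livers (47 genes in 3 groups), 21 had a liver whose gap to its nearest neighbour took up most of the range of the group. Chance gives about 1 in 20 such sets, or 7.05 here, if the sets are independent, which paralogs that share reads are not. Of the 21, 18 were Control-ASO liver 3, always as the highest. The members were chosen with high acute-phase genes in that liver already known, so its flags cannot be weighed against the number given by chance. Its values in CPM were 3649.6 for Saa1, 4119 for Saa2 and 9.01 for Saa3, then 10068 for Hp, 10327 for Hpx and 794 for Steap4. Mt1 stood at 2814, Mt2 at 1839, Orm1 at 2599, Orm3 at 41.2 and Lcn2 at 1834. Among the receptors and regulators, Il1r1 stood at 560.2, Il6ra at 86.9, Cd14 at 23.8, Socs3 at 107, Stat3 at 506 and Cebpd at 58.7. The only complement gene among them was Masp1, at 108. The summed neutrophil markers of this liver were 10.1 CPM. The part of other cell types, and of any event in that animal, was not tested.

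The other 3 values were Lcn2 at 2.66 CPM in DPBS liver 2, Lcn2 at 13.9 CPM in Upf3b-ASO liver 1 and Osmr at 4.92 CPM in DPBS liver 3, the lowest of its group.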

How the results depend on the processing

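For Upf3b-ASO against Control-ASO, the 6 members called became 10 with no filter on low values, 1 without the sex term and 20 with DESeq2, while the 910 calls over all genes became 848, 519 and 1584. Leaving out 1 liver at a time gave 2 members (without Upf3b-ASO liver 4, with 434 genes in all) to 13 (without Control-ASO liver 4, with 1070 genes), with 3 without each of the other Upf3b-ASO livers and 12 without Control-ASO liver 3 (2168 genes). Against DPBS, 3 became 0 without the sex term and 5 with DESeq2, while 790 genes became 477 and 1274, and leaving out 1 liver gave 2 to 16, the highest without Control-ASO liver 3 (2540 genes). For Control-ASO against DPBS, 0 became 5 with DESeq2, run only with Control-ASO liver 3 included, and 1 gene became 43. For the sexes, 10 became 16 with DESeq2 and 8 to 27 with 1 liver left out, the highest without Control-ASO liver 3, while 887 genes became 1359 and 1939. The cause of these shifts was not tested. Livers with the same number did not vary together once sex was removed (mean r of 0.03, range -0.11 to 0.16). With the replicate block the member counts were 4, 2 and 0 for the 3 group comparisons (699, 606 and 0 genes), and with the block and Control-ASO liver 3 left out, a choice made after seeing the data, 13, 13 and 0 (2090, 2424 and 0 genes). The NMD share difference from Control-ASO of 0.97 points had p = 0.125 under the block and was 0.675 points without Mbl1 (exact p = 0.0571). It ranged from 0.42 points without Control-ASO liver 3 to 1.32 points without Control-ASO liver 4. The median share within genes differed by -0.06 points, but this median was the C4b share in every liver, so it describes C4b alone.

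Of 81 pairs of a named member and a comparison, 39 kept their side of the threshold in every alternative and no called direction reversed. Of the 81, 17 had values of both signs over the alternatives, among them Saa1 (-5.39 to 0.22), Saa2 (-5.82 to 0.27), Apcs (-0.63 to 0.21) and Socs3 (-1.67 to 0.36) against Control-ASO. Calls of Hamp2 and C8a were lost only without the sex term. The 5 reads behind each male Upf3b-ASO value limit Hamp2, and 4 livers per group limit the exact tests.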
